A study of Homo sapiens with 6 samples.

Results

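Small nucleolar RNA host genes are long non-coding genes whose introns carry small nucleolar RNAs (snoRNAs), short RNAs that guide the modification of ribosomal and spliceosomal RNA. The hosts described here were all genes in the deposited tables named SNHG followed by a number, except SNHG14, together with GAS5, ZFAS1, EPB41L4A-AS1 and DANCR. This gave 31 of 60607 genes, of which 27 carry an SNHG number, and 584 of 234326 annotated transcripts. Not every member fits the description: GENCODE 29 lists SNHG32 as the protein-coding gene C6orf48, and no snoRNA gene was found inside SNHG27. The same search found none inside GAS5 either, although GAS5 is known to carry box C/D snoRNAs. The RNA came from PLC/PRF/5, an established line of human hepatocellular carcinoma. Cells given SLU7 siRNAs (siSlu7), which target a splicing factor, were compared with cells transfected with an irrelevant siRNA (siGL2), 3 libraries each, with RNA taken 48 h after transfection. The labels speak of triplicate transfections of a single cell line and do not say whether these were separate experiments, so p-values measure the spread between these libraries.

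An intronic snoRNA is released when the host transcript is spliced: the intron is excised as a lariat, opened by the debranching enzyme DBR1 and trimmed by exonucleases down to the ends protected by bound proteins. Box C/D snoRNAs guide methylation and bind fibrillarin, NOP56 and NOP58, whereas box H/ACA snoRNAs guide pseudouridylation and bind dyskerin. The spliced host RNA left behind is often short of coding potential, and several such RNAs, GAS5 and ZFAS1 among them, are known to be degraded by nonsense-mediated decay. SLU7 acts in the second step of splicing, where it helps to select the 3′ splice site.

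SLU7 itself had 9.38, 8.29 and 10.5 counts-per-million (CPM) in siSlu7 cells, against 20.9, 17.1 and 18.4 CPM in siGL2 cells. It fell by 1.002 on the log2 scale (SE 0.18, adjusted p = 0.0139, edgeR quasi-likelihood test). The siSlu7 libraries held 6315740, 5191452 and 5361032 estimated counts, and the siGL2 libraries 8693977, 7769866 and 7736584. Mitochondrial ribosomal RNA took 29.9% to 35.3% of the counts in siSlu7 libraries and 16.8% to 24.1% in siGL2 libraries, and 7SL RNA 7.95% to 10.5% in siSlu7 libraries and 15.4% to 22.8% in siGL2 libraries. All 18 hepatocyte and liver cancer markers were detected in every library. Of the markers of other cell types, summed levels were 49.9 to 56.8 CPM in siSlu7 cells and 51.2 to 67.8 CPM in siGL2 cells for 7 immune genes, 11.5 to 13.1 CPM in siSlu7 cells and 14.1 to 24.9 CPM in siGL2 cells for 6 fibroblast genes, and 3.32 to 4.86 CPM in siSlu7 cells and 3.45 to 3.88 CPM in siGL2 cells for 5 endothelial genes, with COL3A1, LUM, KDR and TEK at 0 throughout.

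ZFAS1, on chromosome 20 at chr20:49278178-49295738 (GRCh38, plus strand), carries 3 related box C/D snoRNAs, which are printed because the host and 1 of them rose together. The annotated sequences (GENCODE 29) are given 5′ to 3′, with the first TGATGA (C box) and the last CTGA (D box) in capitals. SNORD12C lies at chr20:49278940-49279028, SNORD12B at chr20:49280319-49280409 and SNORD12 at chr20:49280683-49280772, all on the plus strand.
SNORD12C: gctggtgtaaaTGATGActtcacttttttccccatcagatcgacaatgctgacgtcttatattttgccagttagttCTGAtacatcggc
SNORD12B: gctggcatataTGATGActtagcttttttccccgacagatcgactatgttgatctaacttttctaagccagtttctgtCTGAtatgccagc
SNORD12: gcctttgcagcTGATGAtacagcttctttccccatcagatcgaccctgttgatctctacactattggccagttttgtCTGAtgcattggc

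In SNHG8, on chromosome 4, the snoRNA sits inside an annotated exon, as SNORD12 does in ZFAS1. SNHG8-204, the host's most abundant transcript, is 570 bases long and holds the 131 bases of SNORA24 at positions 131 to 261, which is 23.0% of its length. The stretch is shown (chr4:118279160-118279350, plus strand, GRCh38, GENCODE 29) because reads from the snoRNA and from the host transcript cannot be separated there. SNORA24 is in capitals between 30 transcript bases on each side.
SNHG8-204 around SNORA24: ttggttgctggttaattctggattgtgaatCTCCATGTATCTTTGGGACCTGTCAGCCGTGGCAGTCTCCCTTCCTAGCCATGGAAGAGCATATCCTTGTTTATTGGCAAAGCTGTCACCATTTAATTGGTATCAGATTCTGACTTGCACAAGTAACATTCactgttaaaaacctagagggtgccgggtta

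Many snoRNA hosts and ribosomal protein genes are known to begin with a C followed by a run of pyrimidines, the 5′ terminal oligopyrimidine tract. Start sites were read from RefSeq (GRCh38.p14), which matched 27 of the 31 hosts. The search, on the gene's own strand, was for a C followed by at least 4 more C or T, beginning within 5 bases of the annotated start. A first rule refused a run that followed another C or T, unless it opened the window. It found a run in 6 of 27 hosts (22.2%), in 16.8% of 27305 promoters and in 47.7% of 65 genes with ribosomal protein symbols. A looser rule without that condition was chosen after those counts had been seen. It found a run in 13 of 27 hosts (48.1%), in 21.1% of all promoters and in 73.8% of ribosomal protein symbols. The share among hosts therefore depends on the rule, and nothing is drawn from it. Among the tested hosts, the looser rule found a run in 5 of 9 that rose and 7 of 15 that were not called, and the first rule in 1 of 9 that rose and 4 of 15 that were not called. The examples below hold 10 bases before the start and 30 from it, with the run of the looser rule in capitals. SNHG12, SNHG4 and DANCR also passed the first rule, ZFAS1, SNHG5 and SNHG19 passed the looser one alone, and SNHG3 passed neither. They lie at chr1:28581844-28581883 (SNHG12, minus strand), chr5:139274091-139274130 (SNHG4, plus), chr4:52712384-52712423 (DANCR, plus), chr20:49278632-49278671 (ZFAS1, plus), chr6:85678704-85678743 (SNHG5, minus), chr16:2155329-2155368 (SNHG19, minus) and chr1:28505933-28505972 (SNHG3, plus).
SNHG12: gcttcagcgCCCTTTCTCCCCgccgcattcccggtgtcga
SNHG4: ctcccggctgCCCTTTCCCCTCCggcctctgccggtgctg
DANCR: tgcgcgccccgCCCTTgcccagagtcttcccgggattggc
ZFAS1: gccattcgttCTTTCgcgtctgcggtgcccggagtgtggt
SNHG5: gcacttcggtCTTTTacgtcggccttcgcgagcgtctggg
SNHG19: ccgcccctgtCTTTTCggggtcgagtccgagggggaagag
SNHG3: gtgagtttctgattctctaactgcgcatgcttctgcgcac

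Of the 31 hosts, 26 had enough counts to be tested, and 10 of these were higher in siSlu7 cells while 0 were lower (edgeR quasi-likelihood test, Benjamini-Hochberg adjusted p under 0.05 over 17109 genes). Across all tested genes, 5.93% were higher and 7.93% lower. At an unadjusted p under 0.05, 13 hosts were higher and 0 lower, beside 15.1% higher and 16.9% lower of all tested genes. DESeq2 called 12 hosts higher and 0 lower, beside 6.11% higher and 8.61% lower of all genes. In bulk RNA, fewer cells with a transcript and less of it per cell cannot be told apart. The median log2 fold change was 0.70 over the 26 hosts, beside -0.01 over all tested genes and 0.14 over tested lncRNA genes, of which 4.91% were higher and 2.38% lower. The values of the siSlu7 and siGL2 libraries did not overlap in 15 hosts, all higher in siSlu7 cells, against 17.8% of all tested genes. The counts rest on few libraries: 0 hosts were called without siSlu7 replicate 2, 1 without siSlu7 replicate 1, 2 without siGL2 replicate 2, 7 without siSlu7 replicate 3, 5 without siGL2 replicate 3, and 12 higher and 1 lower without siGL2 replicate 1. In the same order, the calls over all genes in either direction were 0 of 18511, 337 of 18584, 456 of 17467, 1043 of 18505, 624 of 17429 and 4457 of 17583.

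**Figure D1:**
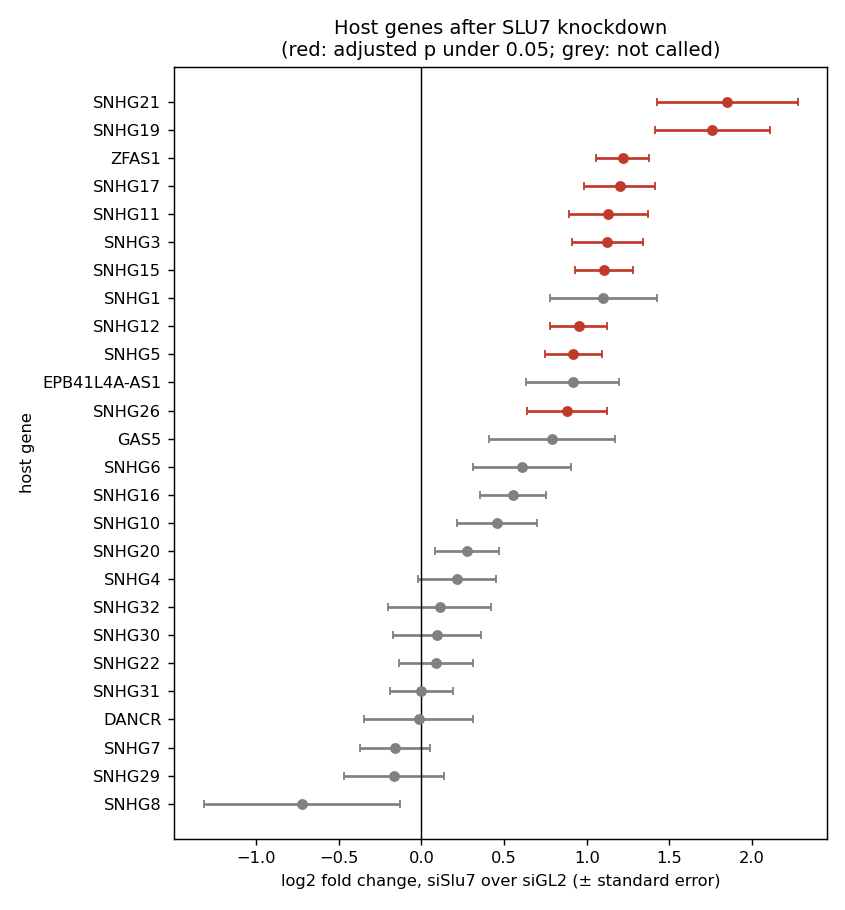
Log2 fold change of each of the 26 tested host genes, siSlu7 over siGL2, with its standard error (x axis; genes run down the y axis by fold change). Red marks the 10 hosts with an adjusted p under 0.05, all to the right of 0, and grey the 16 that were not called.

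ZFAS1 had the smallest adjusted p of the tested hosts. This gene, whose spliced RNA is read from the other strand beside the ZNFX1 gene, had 143, 136 and 159 CPM in siSlu7 cells, against 71.6, 54.5 and 62.2 CPM in siGL2 cells. Every siSlu7 library lay above every siGL2 library, and the log2 fold change was 1.22 (SE 0.16, adjusted p = 0.00882, edgeR). SNHG17 (chr20:38420588-38435353, minus strand, GRCh38), which carries box H/ACA snoRNAs of the SNORA71 family, had 146, 136 and 140 CPM in siSlu7 cells, against 43.6, 60.5 and 79.9 CPM in siGL2 cells. Its siSlu7 libraries were close together and the siGL2 libraries were spread, and the log2 fold change was 1.20 (SE 0.22, adjusted p = 0.0135, edgeR).

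SNHG3 (chr1:28505980-28510892, plus strand), host of SNORA73A and SNORA73B, had 220, 181 and 151 CPM in siSlu7 cells, against 63.4, 95.9 and 93.8 CPM in siGL2 cells. The groups did not overlap, with a log2 fold change of 1.13 (SE 0.22, adjusted p = 0.0158, edgeR). SNHG5 (chr6:85660950-85678748, minus strand), host of SNORD50B, had 102, 86.8 and 74.0 CPM in siSlu7 cells, against 50.1, 39.6 and 49.2 CPM in siGL2 cells. The lowest siSlu7 library lay above the highest siGL2 library, and the log2 fold change was 0.92 (SE 0.17, adjusted p = 0.0152, edgeR). SNHG15 (chr7:44983023-44986961, minus strand), host of SNORA9, had 51.5, 46.3 and 35.3 CPM in siSlu7 cells, against 19.7, 21.2 and 21.1 CPM in siGL2 cells. The siGL2 libraries differed little, and the log2 fold change was 1.10 (SE 0.18, adjusted p = 0.0102, edgeR). SNHG12 (chr1:28578538-28583132, minus strand), which carries both box C/D and box H/ACA snoRNAs, had 41.2, 41.1 and 33.8 CPM in siSlu7 cells, against 17.0, 20.8 and 22.4 CPM in siGL2 cells. The groups stood apart, with a log2 fold change of 0.95 (SE 0.17, adjusted p = 0.0134, edgeR).

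The other called hosts were SNHG26, SNHG11, SNHG19 and SNHG21. SNHG26, host of SNORD93, had 49.2, 41.5 and 35.9 CPM in siSlu7 cells, against 16.1, 22.0 and 30.7 CPM in siGL2 cells, and was the called host nearest to the threshold (log2 fold change 0.88, SE 0.24, adjusted p = 0.0436, edgeR). SNHG11, host of SNORA60 and SNORA71E, had 18.6, 19.0 and 25.2 CPM in siSlu7 cells, against 11.9, 6.83 and 9.84 CPM in siGL2 cells (log2 fold change 1.13, SE 0.24, adjusted p = 0.0208, edgeR). In both genes the groups did not overlap. SNHG19, host of SNORD60, had 31, 25 and 18 counts in siSlu7 cells, against 13, 7 and 9 counts in siGL2 cells (log2 fold change 1.76, SE 0.35, adjusted p = 0.0172, edgeR). SNHG21, host of the Cajal body RNA SCARNA15, had 13, 22 and 21 counts in siSlu7 cells, against 9, 5 and 7 counts in siGL2 cells (log2 fold change 1.85, SE 0.43, adjusted p = 0.026, edgeR). These 2 hosts had the largest fold changes and the fewest counts of the called hosts.

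**Figure D2:**
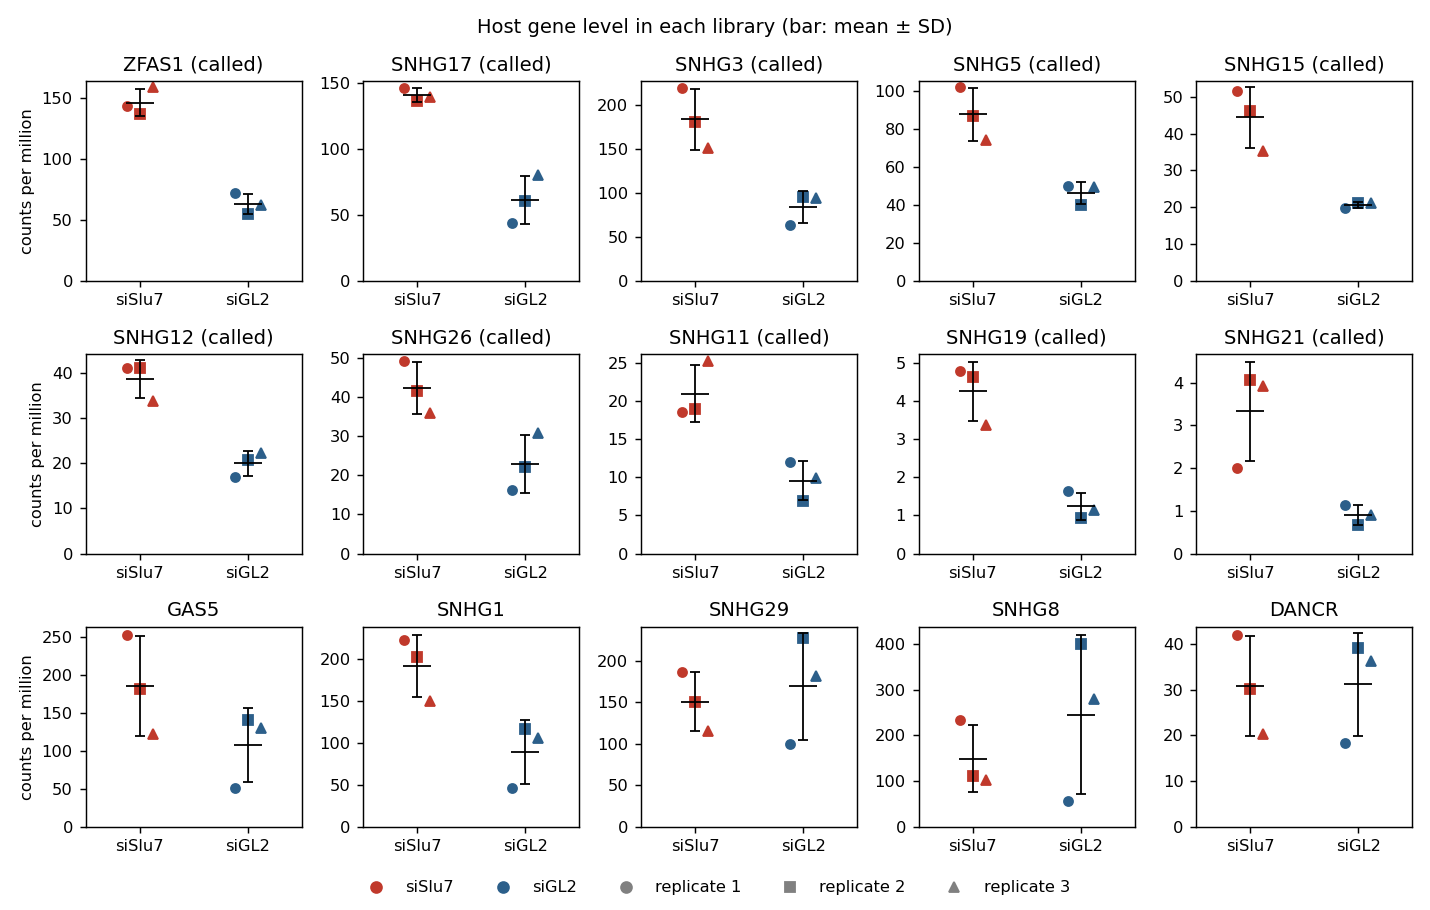
Level of 15 host genes in each library, in CPM (y axis), with siSlu7 left of siGL2; points are libraries and bars the mean ± SD (n = 3). The 10 called hosts show no overlap between the groups, whereas GAS5, SNHG29, SNHG8 and DANCR overlap, with siGL2 replicate 1 the lowest siGL2 library in each of these 4.

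Of the 16 tested hosts that were not called, SNHG1 and EPB41L4A-AS1 came nearest. SNHG1, which holds a series of box C/D snoRNAs, had 223, 203 and 150 CPM in siSlu7 cells, against 45.9, 117 and 106 CPM in siGL2 cells. The groups did not overlap, but the siGL2 libraries were spread, and the log2 fold change was 1.10 (SE 0.33, adjusted p = 0.0545, edgeR). EPB41L4A-AS1, host of SNORA13, had 26.9, 21.6 and 29.7 CPM in siSlu7 cells, against 20.4, 9.78 and 11.2 CPM in siGL2 cells (log2 fold change 0.92, SE 0.28, adjusted p = 0.0611, edgeR). GAS5, a host whose RNA is known as a target of nonsense-mediated decay, had 253, 182 and 122 CPM in siSlu7 cells, against 51.5, 141 and 130 CPM in siGL2 cells. The groups overlapped, and the log2 fold change was 0.79 (SE 0.38, adjusted p = 0.19, edgeR). It was 0.50 without siSlu7 replicate 1 and 0.45 without siGL2 replicate 1, neither of them called, and GAS5 passed the test with no filter on low counts (adjusted p = 0.0364, edgeR) and without siGL2 replicate 1 and siSlu7 replicate 3 together (adjusted p = 0.0132, edgeR).

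SNHG8 had the widest spread. It had 234, 111 and 101 CPM in siSlu7 cells, against 56.9, 400 and 279 CPM in siGL2 cells, so that the siGL2 libraries held both the lowest and the highest values. The log2 fold change was -0.72 (SE 0.60, adjusted p = 0.441, edgeR), and without siGL2 replicate 1 it was -1.19 (adjusted p = 0.0291, edgeR). It was -1.21 without siSlu7 replicate 1 and -0.19 without siGL2 replicate 2, neither of them called (adjusted p = 0.287 and 0.887, edgeR). DANCR, host of SNORA26, had 42.0, 30.04 and 20.2 CPM in siSlu7 cells, against 18.2, 39.1 and 36.2 CPM in siGL2 cells, with a log2 fold change of -0.01 (adjusted p = 0.981, edgeR). SNHG29, host of SNORD49A, SNORD49B and SNORD65, had 187, 151 and 115 CPM in siSlu7 cells, against 99.4, 227 and 182 CPM in siGL2 cells (log2 fold change -0.17, adjusted p = 0.741, edgeR).

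The remaining hosts that were not called had log2 fold changes of 0.55 (SNHG16, host of the SNORD1 family), 0.61 (SNHG6), 0.46 (SNHG10), 0.27 (SNHG20), 0.22 (SNHG4), 0.11 (SNHG32), 0.09 (SNHG30), 0.09 (SNHG22), 0.00 (SNHG31) and -0.16 (SNHG7). Reads of SNHG4 share their start region with MATR3, whose counts were split unevenly between libraries, so its value is uncertain. The value of SNHG32 is uncertain as well, because AL671762.1 overlaps it on the same strand. AL671762.1 had 81.8, 91.2 and 187 CPM in siSlu7 cells, against 248, 64.2 and 52.0 CPM in siGL2 cells. Among the hosts that could not be tested, SNHG18 had 0 counts in every library, SNHG28 had 0 to 1 counts in siSlu7 and 0 to 2 in siGL2 libraries, SNHG9 0 to 2 in siSlu7 and 1 to 7 in siGL2 libraries, SNHG25 0 to 12 in siSlu7 and 1 to 12 in siGL2 libraries, and SNHG27 5 to 8 in siSlu7 and 11 to 14 in siGL2 libraries.

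By kind of snoRNA inside the host, 4 of 10 tested hosts of box C/D snoRNAs were higher (median log2 fold change 0.75), as were 4 of 10 hosts of box H/ACA snoRNAs (median 0.57) and 1 of 4 hosts of Cajal body RNAs (median 0.36). SNHG12, with both kinds, was higher, and the box C/D snoRNAs that GAS5 is known to carry were not analysed here. No tested host of any kind was lower. Across all tested genes, 5.93% were higher and 7.93% lower.

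Host levels also differed between the libraries of a group. Of the 26 tested hosts, siGL2 replicate 1 was the lowest siGL2 library in 17, and siSlu7 replicate 3 the lowest siSlu7 library in 17. The same count was not made over all genes, so it cannot be called particular to the hosts. All hosts together took 0.209%, 0.173% and 0.143% of the counts in siSlu7 libraries, against 0.0702%, 0.145% and 0.138% in siGL2 libraries. The snoRNA genes inside them summed to 8129, 4409 and 2438 counts in siSlu7 libraries, against 3698, 21842 and 16020 in siGL2 libraries. The part of these library differences in the host changes was not tested. Without siGL2 replicate 1 and siSlu7 replicate 3 together, 15 of the 27 hosts then tested were higher, including all 10 called with every library, and 1, SNHG8, was lower. Of all genes, 14.1% were then higher and 15.7% lower. The libraries left out are those named above as most often lowest, so this count is no independent support.

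Per length, SNHG8 was the most abundant host in both groups, with 191 ± 102 TPM (transcripts-per-million) in siSlu7 cells and 221 ± 146 TPM in siGL2 cells (SD, n = 3 each), a spread wide enough to include its neighbours in the order. ZFAS1 averaged 176 ± 20.0 TPM in siSlu7 cells and 53.6 ± 15.02 TPM in siGL2 cells, GAS5 133 ± 36.9 TPM in siSlu7 cells and 66.0 ± 17.9 TPM in siGL2 cells, and SNHG29 128 ± 48.2 TPM in siSlu7 cells and 80.6 ± 12.7 TPM in siGL2 cells. These 4 hosts led the order in both groups, although ZFAS1 was the second in siSlu7 cells and the fourth in siGL2 cells. SNHG17, SNHG1 and SNHG3 followed in siSlu7 cells at 64.0 ± 5.06, 60.6 ± 11.9 and 57.6 ± 13.4 TPM, and differed by less than their spread. TPM values were higher in siSlu7 libraries for the median gene as well, by 0.35 on the log2(TPM + 1) scale, so levels in TPM are compared within a group.

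At the level of single transcripts no call was made in any gene: 0 of 43128 tested transcripts passed (edgeR quasi-likelihood test, smallest adjusted p = 0.0994), while 3241 were higher and 3715 lower at an unadjusted p under 0.05. Of the 127 host transcripts tested, 27 were higher and 2 lower at an unadjusted p under 0.05, beside 7.51% higher and 8.61% lower of all tested transcripts. Without overlap between the groups, 34 of the 127 host transcripts were higher and 3 lower. This count was not made over all transcripts, so it cannot be called particular to the hosts. In ZFAS1 the 5 transcripts with the highest mean count were all higher in siSlu7 libraries without overlap. They belong to the host with the smallest adjusted p and are no separate support. The most abundant was ZFAS1-201 with 232, 182 and 270 estimated counts in siSlu7 cells, against 241, 89.1 and 128 in siGL2 cells, and its CPM values did not overlap. ZFAS1-206 had 118, 138 and 113 estimated counts in siSlu7 cells, against 45.2, 32.0 and 53.0 in siGL2 cells.

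**Figure D3:**
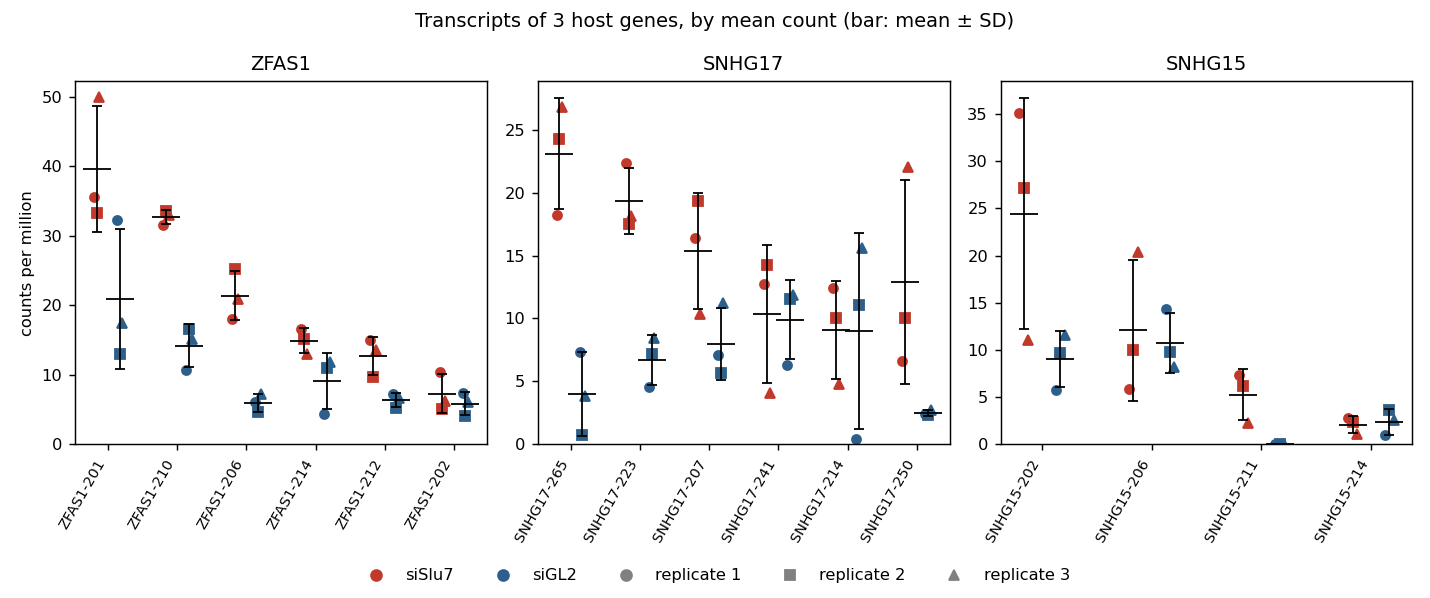
Transcripts of ZFAS1, SNHG17 and SNHG15 (x axis, the 6 with the highest mean count or all with a mean of at least 5 estimated counts) in CPM (y axis), with siSlu7 left of siGL2; points are libraries and bars the mean ± SD (n = 3). SNHG15-211 lies at 0 in all siGL2 libraries, and SNHG17-265 and SNHG17-223 stand apart between the groups.

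Transcript usage, the share of a host's RNA that each transcript takes, differed in 1 of 22 hosts tested, SNHG15 (diffSpliceDGE in edgeR, Simes adjusted p = 0.00405), beside 2.9% of 8869 genes. The F test in place of the Simes method also called SNHG15 alone (adjusted p = 0.0045), beside 4.98% of genes. SNHG15-211 had 48.1, 34.4 and 12.5 estimated counts in siSlu7 cells and 0 in all 3 siGL2 libraries, which gave shares of 14.4%, 13.7% and 6.60% of the SNHG15 counts in siSlu7 cells. Estimates of single transcripts also moved between 0 and high values within a group, as in SNHG1-244 (213, 0 and 0 in siGL2 cells). The uncertainty of these estimates was not modelled, so an estimate of 0 need not mean absence. SNHG15-202 made up 68.3%, 59.4% and 31.9% of the SNHG15 counts in siSlu7 cells, against 27.2%, 41.8% and 52.0% in siGL2 cells. SNHG15-206 made up 11.5%, 21.8% and 58.2% in siSlu7 cells, against 68.2%, 42.5% and 36.7% in siGL2 cells. The shares of both main transcripts overlapped between the groups. The other tested transcript was SNHG15-214 with 17.9, 13.0 and 6.0 estimated counts in siSlu7 cells, against 7.3, 24.8 and 18.7 in siGL2 cells. The SNHG15 call was lost without siSlu7 replicate 2, siGL2 replicate 2 or siGL2 replicate 3.

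Retained-intron transcripts were counted apart because SLU7 is a splicing factor. The hosts held 65 such transcripts in 13 genes. Of 10 hosts whose retained-intron class could be tested, SNHG1, SNHG16 and SNHG3 were higher and 0 lower, beside 5.29% of 4785 retained-intron classes higher and 0.752% lower (edgeR). SNHG3's retained-intron transcripts had 1262, 818 and 666 counts in siSlu7 cells, against 293, 541 and 497 in siGL2 cells (log2 fold change 1.38, SE 0.29, adjusted p = 0.0412, edgeR). Its other transcripts had 169, 166 and 141 counts in siSlu7 cells, against 211, 175 and 237 in siGL2 cells (log2 fold change -0.01, adjusted p = 0.974, edgeR). SNHG3-202, which contains SNORA73A, held nearly all of the retained-intron counts. SNHG3 lies wholly inside the span of RCC1 on the same strand. Whether reads of unspliced RCC1 RNA entered these counts was not tested.

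SNHG16's retained-intron transcripts had 253, 182 and 140 counts in siSlu7 cells, against 92, 82 and 110 in siGL2 cells (log2 fold change 1.37, SE 0.22, adjusted p = 0.0295, edgeR). Its other transcripts had 397, 279 and 253 counts in siSlu7 cells, against 260, 394 and 422 in siGL2 cells, with a log2 fold change of 0.14 (adjusted p = 0.756, edgeR). SNHG1's retained-intron transcripts had 460, 309 and 224 counts in siSlu7 cells, against 71, 167 and 130 in siGL2 cells (log2 fold change 1.76, SE 0.35, adjusted p = 0.0393, edgeR). Its other transcripts had 990, 790 and 580 counts in siSlu7 cells, against 294, 703 and 701 in siGL2 cells (log2 fold change 0.82, adjusted p = 0.191, edgeR), and their CPM values did not overlap between the groups. In all 3 genes the retained-intron class stood apart between the groups. In GAS5, where that class made up 78.4% to 80.6% of the counts in siSlu7 cells and 65.1% to 77.9% in siGL2 cells, it was not called (log2 fold change 0.82, adjusted p = 0.295, edgeR). Of the 13 hosts whose other transcripts were tested, ZFAS1, SNHG5 and SNHG17 were higher and 0 lower, beside 1.59% higher and 1.05% lower of such classes in all genes (edgeR).

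**Figure D4:**
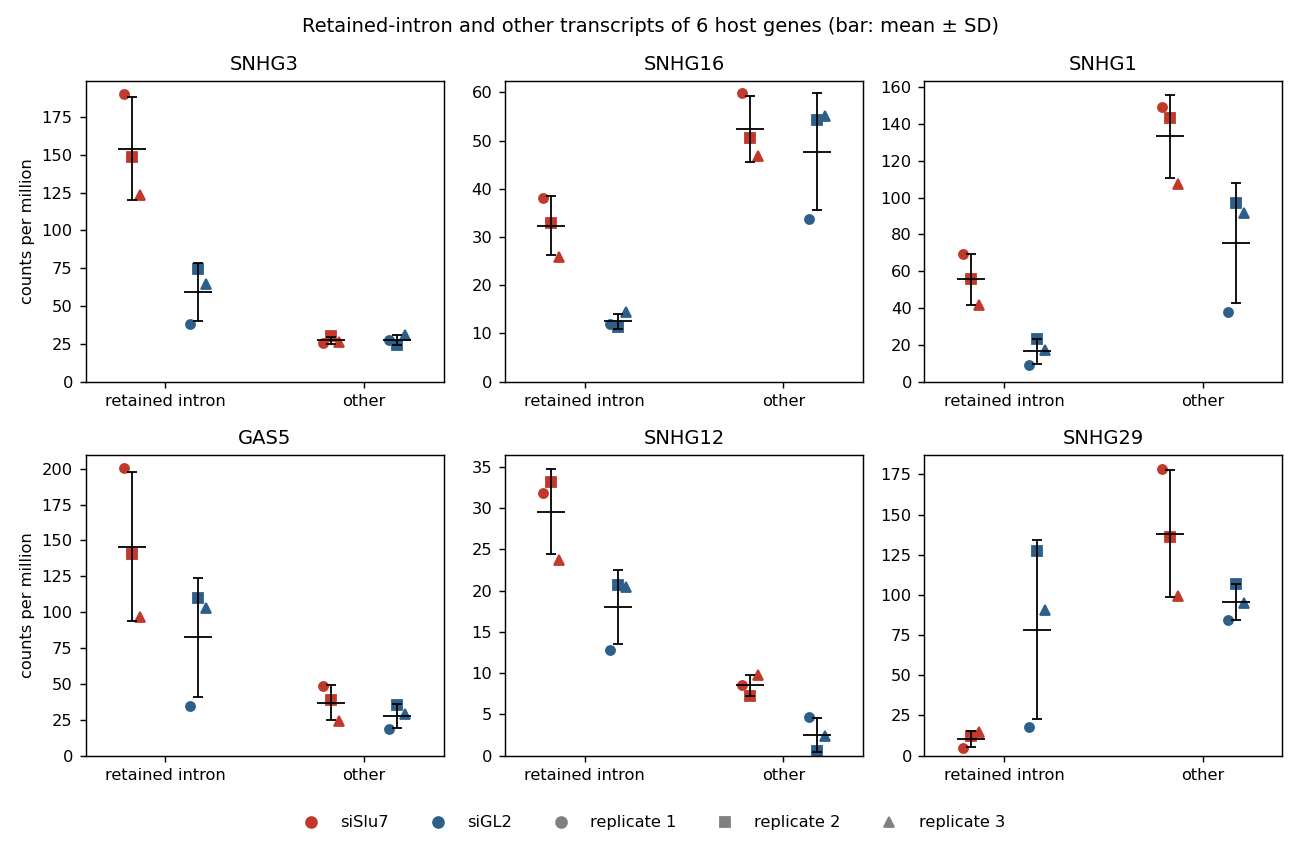
Retained-intron and other transcripts of 6 host genes in each library, in CPM (y axis), with siSlu7 left of siGL2 within each class; points are libraries and bars the mean ± SD (n = 3). In SNHG3 and SNHG16 the groups stand apart for the retained-intron class and overlap for the other transcripts; in SNHG29 the retained-intron class is high in siGL2 replicates 2 and 3.

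The test of class usage, which asks whether the split between the classes differs, called 1 of 10 hosts, SNHG29 (Simes adjusted p = 0.0449, diffSpliceDGE in edgeR), beside 2.41% of 6838 genes. Its retained-intron transcripts had 33, 66 and 79 counts in siSlu7 cells, against 138, 922 and 693 in siGL2 cells. Most of this lay in SNHG29-217, which had 597 and 642 estimated counts in siGL2 replicates 2 and 3 and at most 0.2 in the other libraries, and which contains SNORD49A and SNORD49B. The call was lost when any library but siGL2 replicate 1 was left out. SNHG3 (Simes adjusted p = 0.102) and SNHG16 (Simes adjusted p = 0.274) did not pass, but with the F test in its place they passed together with SNHG29, at adjusted p = 0.0300 and 0.0460, beside 8.72% of genes (diffSpliceDGE in edgeR). With retained-intron transcripts removed from the gene counts, 7 of the 10 called hosts were still called, and SNHG3 (log2 fold change 0.08, adjusted p = 0.783), SNHG12 (1.84, adjusted p = 0.0529) and SNHG26 (0.72, adjusted p = 0.0726) were not, beside 5.23% of all genes higher and 7.46% lower.

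Inside the hosts, GENCODE 29 lists 60 snoRNA or Cajal body RNA genes in 29 hosts. Of these, 30 could be tested, 1 was higher in siSlu7 cells and 0 were lower, beside 5.93% higher and 7.93% lower of all tested genes, and 11 had 0 counts in every library. SNORD12C, in ZFAS1, had 89, 109 and 85 counts in siSlu7 cells, against 45, 47 and 55 in siGL2 cells (log2 fold change 1.38, SE 0.21, adjusted p = 0.00988, edgeR). Its neighbour SNORD12B had 47, 30 and 21 counts in siSlu7 cells, against 5, 43 and 23 in siGL2 cells, and SNORD12 had 42, 17 and 1 counts in siSlu7 cells, against 10, 612 and 275 in siGL2 cells. Neither passed the test (log2 fold change 0.85, adjusted p = 0.354, and -3.54, adjusted p = 0.0783, edgeR).

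SNORA24 had 2648, 861 and 529 counts in siSlu7 cells, against 900, 8014 and 5285 in siGL2 cells, and SNHG8-204, which contains it, had 1249, 449 and 410 estimated counts in siSlu7 cells, against 367, 2834 and 1889 in siGL2 cells. SNORA73A had 747, 577 and 363 counts in siSlu7 cells, against 524, 2707 and 2336 in siGL2 cells, and SNORA73B had 1250, 1047 and 399 in siSlu7 cells, against 686, 4920 and 3549 in siGL2 cells. None of these 3 snoRNA genes passed the test. Mature snoRNAs have no polyA tail, and these libraries were labelled as polyA RNA, so the counts do not measure their cellular level. Of the 270 host transcripts with a sequence in GENCODE 29, 42 contain a whole snoRNA, 21 of them retained-intron transcripts, in 18 hosts. They held 32.7%, 28.9% and 27.7% of the host counts in siSlu7 libraries, against 27.0%, 48.2% and 39.6% in siGL2 libraries.

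**Figure D5:**
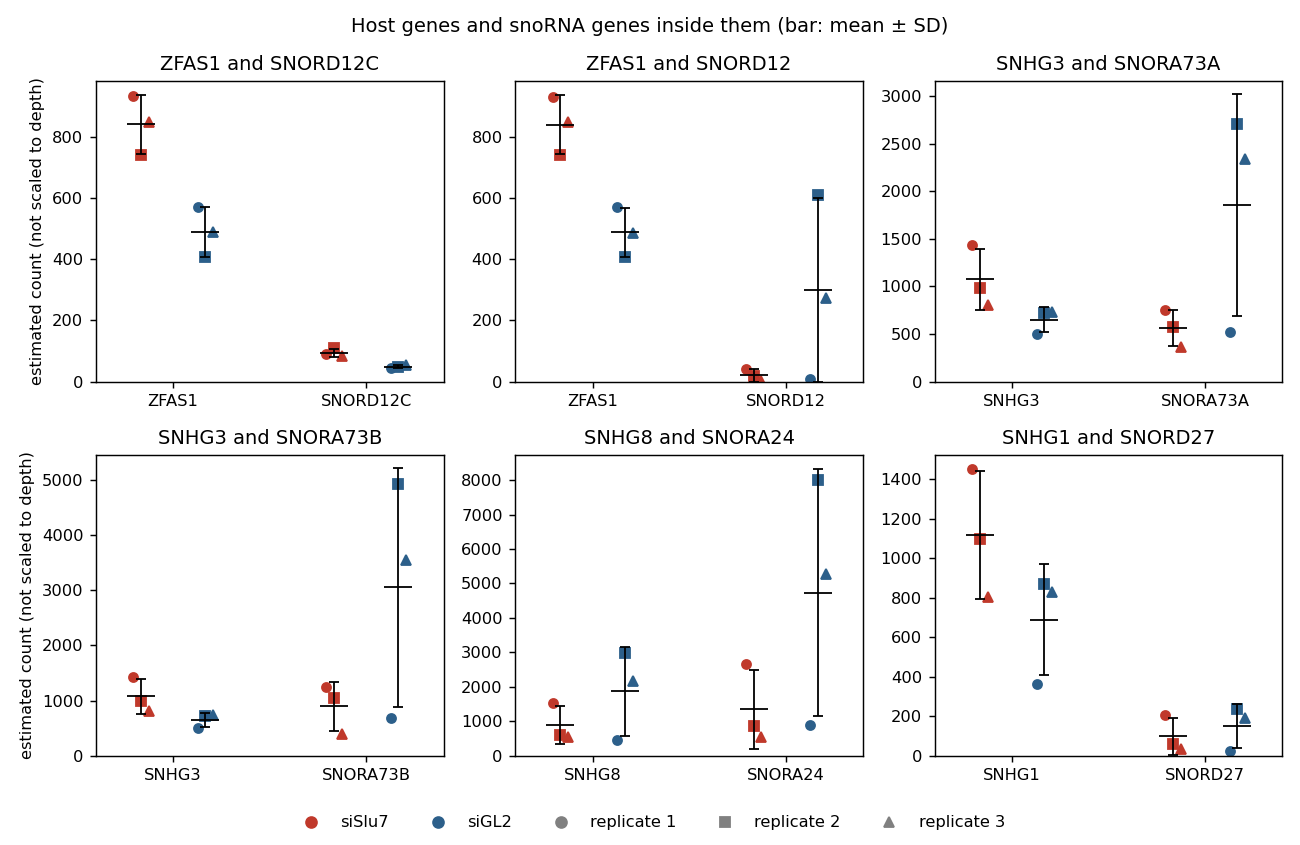
Estimated counts of host genes and of snoRNA genes inside them in each library (y axis, not scaled to depth), with siSlu7 left of siGL2; points are libraries and bars the mean ± SD (n = 3). SNORD12C stands apart between the groups, whereas SNORD12, SNORA73A, SNORA73B and SNORA24 are high in siGL2 replicates 2 and 3.

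Genes around the same pathway were described from lists. Of 28 protein-coding snoRNA hosts, 6 were higher and 1 lower (median log2 fold change 0.21, edgeR), beside 5.93% higher and 7.93% lower of all tested genes. The highest was NOP56, which is part of every box C/D particle and itself a host, with 202, 227 and 350 CPM in siSlu7 cells, against 63.1, 61.1 and 77.2 CPM in siGL2 cells (log2 fold change 1.95, SE 0.23, adjusted p = 0.00786, edgeR). The others that rose were TAF1D (1.53), NOP58, another core protein of the same particles (1.16), RABGGTB (1.09), NAP1L4 (0.78) and WDR43, a factor of ribosome assembly (0.77). The lower one was EEF2, the translation elongation factor (-0.74, adjusted p = 0.0454, edgeR), named after its value was seen. Of the same 28 genes, 10 were higher and 3 lower at an unadjusted p under 0.05, and DESeq2 called 8 higher and 3 lower. Of 23 ribosomal protein genes that host snoRNAs, 0 passed in either direction (median 0.04, edgeR), with RPS2 (-0.93, adjusted p = 0.067) and RPL23 (0.41, adjusted p = 0.179) nearest. At an unadjusted p under 0.05, 0 of them were higher and 1 lower, and DESeq2 called 0 higher and 1 lower.

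Of 17 snoRNP proteins and assembly factors, 3 were higher and 1 lower (median 0.35). NOP56 and NOP58 belong to both lists. RPAP3, a chaperone partner in snoRNP assembly, had a log2 fold change of 1.24, and RUVBL2, an ATPase of the same machinery, fell by 0.92. Of the same 17 genes, 4 were higher and 1 lower at an unadjusted p under 0.05, and DESeq2 called 4 higher and 1 lower. Of 19 nonsense-mediated decay and exon junction factors, 3 were higher and 0 lower (median 0.41), among them SMG8 (1.06) and the helicase UPF1 (0.68). At an unadjusted p under 0.05, 6 were higher and 4 lower, and DESeq2 called 3 higher and 0 lower. Of 17 protein-coding targets of nonsense-mediated decay, 16 could be tested, and SRSF7 (1.04), TRA2A (0.85), UPF1 (0.68) and SRSF2 (0.60) were higher and 0 lower (median 0.07), with 6 higher and 1 lower at an unadjusted p under 0.05 and 4 higher and 0 lower by DESeq2. Of 8 genes of intron release and RNA end processing, 1 was higher, TGS1, which trimethylates the cap of small RNAs (0.79), and 0 were lower (median 0.32), with 3 higher and 0 lower at an unadjusted p under 0.05 and 1 higher and 0 lower by DESeq2; DBR1 did not pass (0.61, adjusted p = 0.0810, edgeR). Of all tested genes, 5.93% were higher and 7.93% lower at the adjusted threshold in edgeR, 15.1% higher and 16.9% lower at an unadjusted p under 0.05, and 6.11% higher and 8.61% lower by DESeq2.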

How the data were processed

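RNA from PLC/PRF/5 cells was extracted with TRIzol and sequenced from libraries made with a ScriptSeq mRNA-Seq kit, per the labels' protocols. Per the submitters' processing notes, the build was GRCh38, and the tools listed, with no role stated, were kallisto 0.46.1, sleuth 0.30.0, Trimmomatic 0.38 and FastQC 0.11.8. The deposited files hold, per transcript, the authors' estimated counts, which are not normalized, and TPM values. Neither the GENCODE release nor the strand setting is given in the sources used here. Without strand, reads of overlapping genes on opposite strands cannot be told apart; 16 hosts are overlapped in this way.

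Estimated counts of 234485 records per file were summed per gene and rounded, after 159 records of the pseudoautosomal regions on Y were added to X. The edgeR package 4.0.16 (R 4.3.3) was used on genes, transcripts and transcript classes, after TMM scaling and the filter of filterByExpr (minimum count 10, minimum total 15), with the quasi-likelihood test on the 6 libraries. P-values were adjusted by Benjamini-Hochberg, with a threshold of 0.05. Usage was tested with diffSpliceDGE. Each test was run on simulated counts. Their variation between libraries was set lower than estimated for genes in these data, and changes were placed only in well-counted features. The simulation therefore does not measure power or false calls in these data. Alternatives used DESeq2 1.42.0, limma 3.58.1 and GC and length offsets (mgcv 1.9.3). Positions and transcript sequences came from GENCODE 29 (GRCh38). Hosts were named whenever they could be tested, transcripts for being the most abundant or past a test, and list members by smallest p. The members and lists were chosen with earlier results of these data known. The rule for pyrimidine runs at the start sites was loosened after its first counts had been seen, and both are reported. One gene of a described list is not reported here by name.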

Additional observations from a re-analysis of the deposited data

How the results depend on the processing

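With a stricter filter or none, RLE size factors, DESeq2, rounding per transcript, removal of structural and mitochondrial RNA genes, or limma on log2(TPM + 1), between 10 and 14 hosts were higher and 0 lower, and all 10 called hosts were kept in each. Calls over all genes in either direction were 2347 of 17141 (stricter filter), 3196 of 38831 (no filter), 2381 of 17109 (RLE) and 2518 of 17109 (DESeq2). They were 2358 of 17097 with rounding, 2628 of 16671 with the removal, and 3135 of 17109 with limma. The 14 hosts were those called with limma, where the median log2 fold change of all genes was 0.35. With transcript length offsets 6 hosts were higher, beside 840 of 17109 genes called in either direction. With GC content and length offsets 9 were higher, beside 1891 of 17109 genes called. The cause was not tested. Leaving out one library in turn gave 0 to 12 hosts higher and 0 to 1 lower, 0 to 3 hosts called for usage and 0 to 1 for class usage. Over all genes, between 156 of 9905 and 808 of 9289 were then called for usage. For class usage, between 31 of 7460 and 446 of 7121 were called. Without siSlu7 replicate 2, where 0 genes passed in all, 4244 genes had an unadjusted p under 0.05. Without siGL2 replicate 1 and siSlu7 replicate 3 together, 15 hosts were higher and 1 lower, 3 were called for usage and 2 for class usage. Over all genes, 14.1% were then higher and 15.7% lower, 865 of 9239 were called for usage and 483 of 7056 for class usage. With all 6 libraries the F test called 3 hosts for class usage, beside 8.72% of genes. No alternative called a host transcript. Over all genes, each alternative also called 0 transcripts, except the one with no filter, which called 94 of 141024.

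Whether the replicate numbers shared by the groups pair the libraries is not known. Deviations of log2 CPM from each group's mean correlated at -0.41, 0.11 and -0.37 between same-numbered libraries. Between libraries of different number they correlated at -0.29 to 0.44. With so few libraries, these values cannot settle whether the libraries are paired. With the replicate block, alone or with GC content and length offsets, 0 hosts were higher, beside 0 of 17109 genes called in either direction. Under the block alone, 0 hosts were called for usage, beside 87 of 8869 genes, and 0 for class usage, beside 12 of 6838 genes. With the block alone and with the offsets, 4209 and 3762 genes had an unadjusted p under 0.05. All 10 called hosts kept a positive fold change.

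No called host changed sign. Signs reversed for hosts that were not called. SNHG31 was -0.0225 with no filter, -0.00329 without structural and mitochondrial RNA, -0.245 under the GC content and length correction (-0.257 with the replicate block as well), -0.0044 with the replicate block, -0.109 without both libraries and -0.000281 with DESeq2. DANCR was 0.129 under that correction (0.111 with the block too), 0.214 with limma and 0.0152 without retained-intron transcripts. SNHG8 was 0.0349 with limma. All limma values given here stand beside a median of 0.35 over all tested genes. SNHG32 was -0.0854 under that correction and -0.129 without both libraries. SNHG7 was 0.214 under that correction, 0.223 with the block too, and 0.372 with limma. SNHG29 was 0.162 with length offsets, 0.61 with limma and 0.627 without retained-intron transcripts. SNHG30 was -0.102 under the GC content correction, -0.109 with the block too, and -0.0271 without both libraries. Leaving out one library gave ranges of -0.087 to 0.108 (SNHG31), -0.311 to 0.213 (DANCR), -0.199 to 0.287 (SNHG32), -0.439 to 0.0921 (SNHG29), -1.21 to -0.186 (SNHG8), -0.127 to 0.205 (SNHG30) and -0.102 to 0.285 (SNHG22). The removal of retained-intron transcripts and the F test for class usage were chosen after seeing the data. With 3 libraries a group, and 5 to 31 counts in SNHG19 and SNHG21, small changes were not detectable.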

Other observations

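Genes that overlap a host or start within 2 kb of its start were measured beside it. ZNFX1, whose start lies 248 bases from that of ZFAS1 on the other strand, had 174, 186 and 189 CPM in siSlu7 cells, against 124, 102 and 106 CPM in siGL2 cells (log2 fold change 0.72, SE 0.15, adjusted p = 0.0201, edgeR). AC105339.2, which overlaps SNHG21 on the same strand, had 11.4, 8.48 and 7.29 CPM in siSlu7 cells, against 3.27, 4.42 and 5.24 CPM in siGL2 cells (log2 fold change 1.07, SE 0.27, adjusted p = 0.0346, edgeR). SEC14L1, which overlaps SNHG20 on the same strand, had 12.5, 14.9 and 15.7 CPM in siSlu7 cells, against 23.7, 26.7 and 27.1 CPM in siGL2 cells (log2 fold change -0.85, SE 0.17, adjusted p = 0.0168, edgeR). DIPK1B, which overlaps SNHG7 on the other strand, had a log2 fold change of -0.85 (SE 0.23, adjusted p = 0.0427, edgeR). RCC1 (chr1:28505943-28539300) shares its start region with SNHG3 and spans all of it on the same strand. Its log2 fold change was 0.43 (adjusted p = 0.0652, edgeR). RPS2, which starts 99 bases from SNHG9 on the other strand, had -0.93 (adjusted p = 0.067, edgeR). MATR3, at the start of SNHG4, had 4.61, 36.7 and 44.7 CPM in siSlu7 cells, against 30.9, 0.268 and 5.88 CPM in siGL2 cells, which did not order by group.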
